A study of Arabidopsis thaliana with 12 samples.

Results

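Aquaporins are membrane channels of the major intrinsic protein (MIP) family that let water and small neutral solutes cross plant membranes. They were taken as every row of the deposited RPKM table whose UniProt description contained the word aquaporin, which gave 34 of 25941 rows. RPKM is the read count divided by gene length and library total. Of the 34 rows, 33 carried the MIP domain in the table's Pfam column: 5 PIP1 and 8 PIP2 genes (plasma membrane intrinsic proteins), 8 TIP genes (tonoplast intrinsic proteins, of the vacuolar membrane), 9 NIP rows (nodulin 26-like intrinsic proteins) and 3 SIP genes (small basic intrinsic proteins). The remaining row, AT4G10370, was described as NIP5-1 through a weak match (score 60.1), while its Pfam domain was C1_3 and not MIP. AT4G10370 lies 5482 bases from NIP5-1, and counts are also given without it. Genes are named as in the table's descriptions, with a hyphen where the literature often has a semicolon (TIP1-3 for TIP1;3).

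The study measured root RNA of Arabidopsis thaliana after 10 days on solid MS medium. OX3 is a line that overexpresses the soybean gene GmVP2, and only 1 such line was profiled; the labels do not name the promoter of the transgene. The wild type is Columbia-0. The 4 groups, of 3 libraries each, were OX3 at low phosphate (6.25 µM; replicates 1, 2 and 4), wild type at low phosphate, OX3 at normal phosphate (1250 µM) and wild type at normal phosphate (replicates 2, 3 and 4 in each of these). Reads on the genes of the table, recovered from the RPKM values, came to 17670350 to 20418541 per library. Aquaporin rows took 0.40% to 0.556% of them. These totals are not the sequencing depth, which cannot be read from RPKM. Values per library are listed in the order of these replicate numbers. Since replicates are not described as separate plants, p-values reflect the variation among these libraries only, and it may be technical. In RNA from whole roots, fewer cells of a type and less RNA per cell cannot be told apart.

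Water enters a root across living cells through plasma membrane aquaporins, and the vacuolar isoforms carry water, urea or ammonia into and out of the vacuole. PIP1 proteins commonly assemble with PIP2 proteins to reach the plasma membrane, and PIP2 proteins conduct water on their own. Several NIP proteins carry boric acid, arsenite or other uncharged solutes rather than water, and the SIP proteins lie in the endoplasmic reticulum.

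Low phosphate moved many aquaporins in both directions, in both genotypes. In OX3, 20 of the 30 tested rows passed (9 higher and 11 lower at low than at normal phosphate), which is 66.7%, against 47% of all 18910 tested genes (23.3% higher and 23.8% lower). In the wild type 23 of 30 passed (10 higher and 13 lower), which is 76.7%, against 46% of all tested genes (24.3% higher and 21.6% lower). A gene passed at a Benjamini-Hochberg adjusted p below 0.05 in limma on log2(RPKM + 1), and it was tested if its mean over the 12 libraries was at least 1 RPKM. Without AT4G10370 the counts were 19 of 29 in OX3 and 22 of 29 in the wild type.

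The aquaporin changes were also wider than those of most genes. The median absolute log2 change was 0.45 in OX3 and 0.61 in the wild type over the 30 rows, against 0.20 over all tested genes in each genotype. The median signed change was -0.09 in OX3 and -0.07 in the wild type, against -0.02 and 0.02 over all tested genes. A log2 change of at least 1 in size was reached by 5 called rows in OX3 (16.7%, against 7.88% of all tested genes) and by 6 in the wild type (20%, against 7.79%). Both counts include TIP1-3, which met the minimum for testing only through its low phosphate libraries. The count passing was higher than the background in each genotype, and it is a description of the family without a test of its own. The scale of log2(RPKM + 1) shrinks changes of genes at a low level, and many aquaporins were at a high level. No genes of similar level were set beside the family, so the part of level in these gaps was not tested.

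In both genotypes 19 rows passed, all with the same sign, 9 higher and 10 lower. They are 19 of the 20 called in OX3 and 19 of the 23 called in the wild type. The share of all tested genes that passed in both genotypes with the same sign was not counted. The shared sign is therefore not read as a trait of aquaporins. PIP1-3 passed in OX3 alone, and PIP1-1, PIP2-7, TIP1-1 and TIP1-2 in the wild type alone. Passing in 1 genotype alone is not a difference between genotypes, and no aquaporin row passed the test of that difference. NIP4-2, PIP1-5, PIP2-8, SIP1-1, SIP2-1 and TIP4-1 passed in neither genotype.

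**Figure D1:**
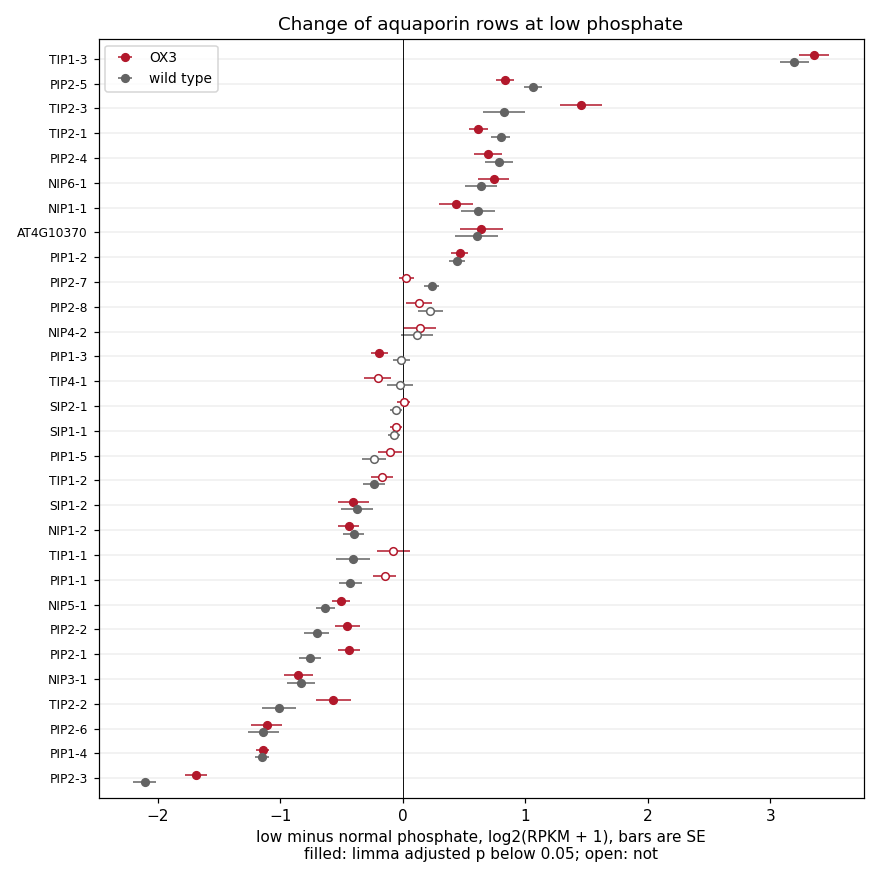
Change of the 30 tested aquaporin rows at low phosphate, as the low minus normal difference in log2(RPKM + 1), with bars for the limma standard error, OX3 above the wild type in each row. TIP1-3 stands far to the right at 3.36 in OX3 and 3.20 in the wild type, and PIP2-3 farthest to the left at -1.69 in OX3 and -2.11 in the wild type.

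A few genes carried most of the aquaporin signal. The 8 genes with the highest means were TIP1-2, PIP1-2, TIP1-1, PIP1-3, PIP2-1, PIP2-7, PIP2-2 and NIP5-1. Together they made up 75.4% ± 0.117 of the family's summed RPKM in OX3 and 75.1% ± 0.448 in the wild type at low phosphate, against 75.2% ± 0.219 in OX3 and 74.6% ± 0.223 in the wild type at normal phosphate (SD, n = 3 each). The share held by these 8 genes thus differed by less than 1 percentage point between groups, while levels within the family moved. TIP1-2 alone held 21.3% in OX3 and 20.8% in the wild type at low phosphate, and 21.8% in OX3 and 20.9% in the wild type at normal phosphate.

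**Figure D2:**
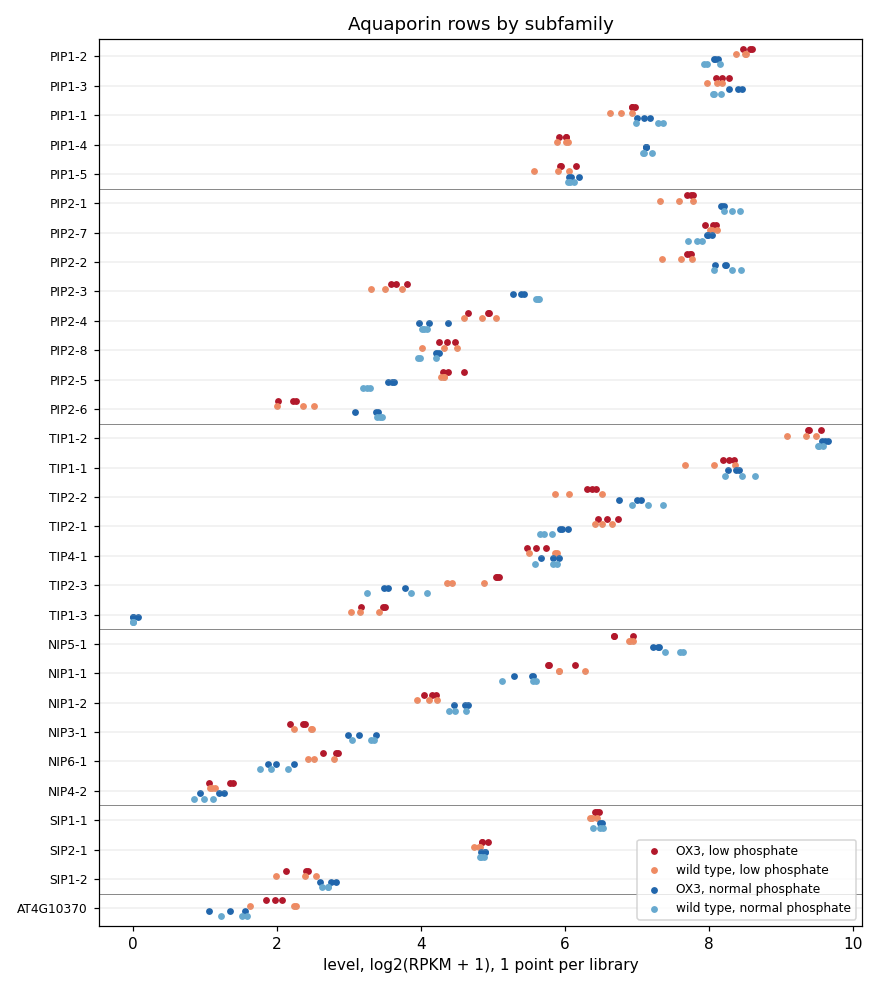
Level of each tested aquaporin row in each library as log2(RPKM + 1), ordered by mean within each subfamily, with OX3 above the wild type and low above normal phosphate in the legend. The PIP1, PIP2 and TIP genes span from near 0 for TIP1-3 at normal phosphate to above 9 for TIP1-2.

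The tonoplast genes held the widest rise among the aquaporins, in TIP1-3, while TIP4-1 passed in neither genotype. Of 7 tested TIP genes, 3 rose and 1 fell in OX3, while 3 rose and 3 fell in the wild type. Over all tested genes 23.3% were higher and 23.8% lower in OX3, and 24.3% were higher and 21.6% lower in the wild type. TIP1-3 (AT4G01470, chr4:624786-625885, minus strand of TAIR10.1, as are all coordinates here) is known as a water and urea channel of pollen. TIP1-3 had 10.13, 10.3 and 7.97 RPKM in OX3 and 9.67, 7.88 and 7.13 RPKM in the wild type at low phosphate, against 0, 0 and 0.0456 RPKM in OX3 and 0, 0 and 0 RPKM in the wild type at normal phosphate. The low phosphate libraries of both genotypes were all far above the normal phosphate libraries, which held a single read between them. In reads, OX3 had 579 at low phosphate and 1 at normal phosphate, a 600.5-fold ratio after scaling to library totals (exact 95% interval 107.3 to 23760, counting error only). In the wild type there were 524 reads at low phosphate and 0 at normal phosphate, at least 173.7-fold higher against a floor of 3 reads over the group. On the log2(RPKM + 1) scale, which understates such a change, the rise was 3.36 ± 0.12 (SE) in OX3 (limma adjusted p = 2.45e-11) and 3.20 ± 0.12 in the wild type (limma adjusted p = 4.21e-11). TIP1-3 met the minimum mean for testing only through its low phosphate libraries. Its SE is pooled over all groups, and the normal phosphate groups, at or near 0, hardly vary. These p-values are therefore not read as support beyond the read counts.

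TIP1-3 lies head to head with PPa5 (AT4G01480), a soluble inorganic pyrophosphatase gene that was chosen after its values were seen. Between the annotated starts lie 183 bases. PPa5 averaged 307 ± 6.16 RPKM in OX3 and 279 ± 33.8 RPKM in the wild type at low phosphate, against 155 ± 9.74 RPKM in OX3 and 153 ± 6.91 RPKM in the wild type at normal phosphate (SD, n = 3 each). Both neighbours were higher at low phosphate, PPa5 by 0.98 ± 0.08 in OX3 (limma adjusted p = 9.18e-08) and 0.86 ± 0.08 in the wild type (limma adjusted p = 3.92e-07) on the log2 scale. The stretch between the genes is shown because both genes read away from it (chr4:625886-626068 of TAIR10.1, minus strand, from RefSeq, 5′ to 3′ towards TIP1-3).
TIP1-3 upstream: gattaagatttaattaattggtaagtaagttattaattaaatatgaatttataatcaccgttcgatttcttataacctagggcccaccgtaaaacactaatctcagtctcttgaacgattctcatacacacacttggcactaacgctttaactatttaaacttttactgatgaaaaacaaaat
The 8-letter sequence GNATATNC, where N is any base, is the binding element (P1BS) of PHR1, the main transcription factor of phosphate starvation. GNATATNC is its own reverse complement, so 1 search covers both strands. It does not occur in these 183 bases, which says only that these letters are not in the window.

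TIP2-3 (AT5G47450, chr5:19248249-19249622, minus strand) and TIP2-1 are known as ammonia and water channels of the vacuole, and TIP2-2 is a root isoform of the same group. TIP2-3 had 32.9, 32.2 and 31.8 RPKM in OX3 and 28.3, 20.5 and 19.5 RPKM in the wild type at low phosphate, against 12.7, 10.2 and 10.6 RPKM in OX3 and 8.46, 15.96 and 13.5 RPKM in the wild type at normal phosphate. The low phosphate libraries were above all normal phosphate libraries in both genotypes, and at low phosphate all 3 OX3 libraries were above the 3 wild-type libraries. TIP2-3 rose by 1.46 ± 0.17 in OX3 (limma adjusted p = 7.72e-06) and by 0.82 ± 0.17 in the wild type (limma adjusted p = 0.00127). TIP2-1 averaged 96.0 ± 9.19 RPKM in OX3 and 91.6 ± 8.05 RPKM in the wild type at low phosphate, against 62.1 ± 2.70 RPKM in OX3 and 52.1 ± 3.21 RPKM in the wild type at normal phosphate (SD, n = 3 each). It rose by 0.62 in OX3 (limma adjusted p = 1.27e-05) and by 0.80 in the wild type (limma adjusted p = 8.77e-07). TIP2-1 overlaps a long noncoding RNA gene of the table (AT3G03265, mean 3.58 RPKM) by 445 bases, and since the strand used in counting is not given, their reads may not be separate.

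TIP2-2 (AT4G17340, chr4:9698940-9700472, plus strand) moved the other way. TIP2-2 had 85.2, 82.2 and 78.1 RPKM in OX3 and 90.0, 57.3 and 65.7 RPKM in the wild type at low phosphate, against 132, 107 and 127 RPKM in OX3 and 121, 164 and 142 RPKM in the wild type at normal phosphate. All low phosphate libraries were below all normal phosphate libraries, with wild-type replicate 3 the lowest. TIP2-2 fell by 0.57 ± 0.14 in OX3 (limma adjusted p = 0.00395) and by 1.01 ± 0.14 in the wild type (limma adjusted p = 3.23e-05). TIP2-2 made up 39.0% ± 1.53 of the summed TIP2 RPKM in OX3 and 38.0% ± 2.97 in the wild type at low phosphate, against 62.4% ± 2.21 in OX3 and 68.6% ± 2.85 in the wild type at normal phosphate (SD, n = 3 each). By mean RPKM the leading TIP2 isoform was TIP2-1 at low phosphate and TIP2-2 at normal phosphate, in both genotypes. The coding sequences of TIP2-2 and TIP2-3 are 81.5% identical over 753 aligned bases, and no 50-base stretch of either occurs elsewhere in the genome.

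The most abundant tonoplast genes passed as lower in the wild type alone, by calls that depended on single libraries and on the fit. The difference of responses between genotypes did not pass. TIP1-2 (AT3G26520, chr3:9722443-9723904, minus strand) and TIP1-1, or gamma-TIP (AT2G36830, chr2:15445294-15446621, plus strand), are the bulk water channels of vegetative vacuoles. TIP1-2 had 751, 674 and 664 RPKM in OX3 and 715, 544 and 654 RPKM in the wild type at low phosphate, against 804, 764 and 784 RPKM in OX3 and 738, 768 and 735 RPKM in the wild type at normal phosphate. The low phosphate libraries were below the normal ones in each genotype, the wild-type replicate 3 at low phosphate being the lowest. TIP1-2 passed in the wild type, at -0.24 ± 0.089 with a limma adjusted p of 0.0415, and did not pass in OX3 (-0.17 ± 0.089, limma adjusted p = 0.127). With the 2 compared groups alone this was turned around, with TIP1-2 passing in OX3 (limma adjusted p = 0.0464) and not in the wild type (0.102).

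TIP1-1 had 311, 325 and 291 RPKM in OX3 and 328, 203 and 268 RPKM in the wild type at low phosphate, against 332, 306 and 340.2 RPKM in OX3 and 298, 398 and 352 RPKM in the wild type at normal phosphate. The groups overlapped in both genotypes. TIP1-1 passed in the wild type, at -0.41 ± 0.14 with a limma adjusted p of 0.0261, and not in OX3 (-0.076 ± 0.14, limma adjusted p = 0.679). Both wild-type calls rested on single libraries. Without wild-type low phosphate replicate 3, TIP1-2 was at -0.13 (limma adjusted p = 0.204) and TIP1-1 at -0.22 (limma adjusted p = 0.127). Leaving out wild-type normal phosphate replicate 3 or 4 also ended both calls (limma adjusted p = 0.111 and 0.0702 for TIP1-2, 0.114 and 0.0636 for TIP1-1). The TIP1-2 call also ended without wild-type low phosphate replicate 4 (0.0575) or normal phosphate replicate 2 (0.0751).

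TIP4-1, a root urea and water channel, averaged 47.7 ± 4.58 RPKM in OX3 and 53.2 ± 7.89 RPKM in the wild type at low phosphate, and 55.1 ± 4.84 RPKM in OX3 and 53.9 ± 5.95 RPKM in the wild type at normal phosphate (SD, n = 3 each). Its groups overlapped. TIP3-1, a channel of seed storage vacuoles, had 2 reads in all, both in wild-type normal phosphate replicate 3, and was below the minimum for testing.

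The PIP2 genes split into members that fell and members that rose. Of 8 tested genes, 2 rose and 4 fell in OX3, and 3 rose and 4 fell in the wild type. Among all tested genes 47% passed in OX3 and 46% in the wild type. PIP2-1 (AT3G53420, chr3:19803473-19805730, minus strand) and PIP2-2 (AT2G37170) are major contributors to water uptake by Arabidopsis roots. PIP2-1 had 215, 219.5 and 207 RPKM in OX3 and 219, 159 and 192 RPKM in the wild type at low phosphate, against 296, 286 and 289 RPKM in OX3 and 297, 346 and 318 RPKM in the wild type at normal phosphate. All low phosphate libraries were below all normal phosphate libraries, and the lowest was wild-type replicate 3. PIP2-1 fell by 0.44 ± 0.091 in OX3 (limma adjusted p = 0.00118) and by 0.76 ± 0.091 in the wild type (limma adjusted p = 8.48e-06).

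PIP2-2 had 215, 213 and 207 RPKM in OX3 and 216, 162 and 195 RPKM in the wild type at low phosphate, against 301, 270.4 and 299.6 RPKM in OX3 and 268, 347 and 318 RPKM in the wild type at normal phosphate. Again no low phosphate library reached the normal phosphate ones. PIP2-2 fell by 0.45 ± 0.10 in OX3 (limma adjusted p = 0.00217) and by 0.70 ± 0.10 in the wild type (limma adjusted p = 5.21e-05).

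PIP2-3 (AT2G37180), first described as the desiccation-responsive gene RD28, fell more than any other aquaporin in both genotypes. PIP2-3 had 10.95, 13.0 and 11.6 RPKM in OX3 and 12.3, 10.3 and 8.89 RPKM in the wild type at low phosphate, against 40.9, 37.8 and 42.3 RPKM in OX3 and 47.4, 48.9 and 48.4 RPKM in the wild type at normal phosphate. The low phosphate libraries were far below the normal ones, and the groups did not overlap. PIP2-3 fell by 1.69 ± 0.092 in OX3 (limma adjusted p = 2.06e-09) and by 2.11 ± 0.092 in the wild type (limma adjusted p = 2.03e-10).

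PIP2-2 (chr2:15613368-15615022, minus strand) and PIP2-3 (chr2:15617635-15619155, plus strand) are neighbours that point away from each other across 2612 bases. Their coding sequences are 94.8% identical over 858 aligned bases. Of all 50-base stretches of the exons, 14.71% of those of PIP2-2 and 16.5% of those of PIP2-3 occur again elsewhere in the genome, so the division of reads between the pair is uncertain where counting could split them. The RPKM of PIP2-3 was 5.60% ± 0.505 of that of PIP2-2 in OX3 and 5.54% ± 0.919 in the wild type at low phosphate, against 13.9% ± 0.274 in OX3 and 15.7% ± 1.84 in the wild type at normal phosphate (SD, n = 3 each). The pair therefore did not move in a fixed ratio.

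PIP2-6 (AT2G39010, chr2:16291280-16294101, plus strand), a PIP2 gene of low level in these roots, was lower as well. PIP2-6 had 3.80, 3.66 and 3.05 RPKM in OX3 and 4.11, 2.98 and 4.71 RPKM in the wild type at low phosphate, against 7.43, 9.33 and 9.52 RPKM in OX3 and 9.48, 9.77 and 10.0 RPKM in the wild type at normal phosphate. The groups were apart in both genotypes. PIP2-6 fell by 1.11 ± 0.13 in OX3 (limma adjusted p = 4.41e-06) and by 1.14 ± 0.13 in the wild type (limma adjusted p = 3.47e-06). PIP2-1, PIP2-2 and PIP2-3 together made up 56.8% ± 1.93 of the summed PIP2 RPKM in OX3 and 53.8% ± 3.85 in the wild type at low phosphate, against 66.7% ± 0.847 in OX3 and 71.1% ± 2.90 in the wild type at normal phosphate (SD, n = 3 each).

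PIP2-5 rose. This isoform (AT3G54820, chr3:20301759-20304309, plus strand) is known from drought-treated and cold-treated plants. PIP2-5 had 19.8, 18.8 and 23.2 RPKM in OX3 and 18.4, 19.0 and 19.0 RPKM in the wild type at low phosphate, against 10.6, 11.4 and 11.1 RPKM in OX3 and 8.54, 8.11 and 8.82 RPKM in the wild type at normal phosphate. All low phosphate libraries were above all normal phosphate libraries, and at normal phosphate all OX3 libraries were above the wild-type ones. PIP2-5 rose by 0.84 ± 0.073 in OX3 (limma adjusted p = 2.96e-07) and by 1.06 ± 0.073 in the wild type (limma adjusted p = 2.38e-08).

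PIP2-4, a root isoform, averaged 27.8 ± 3.10 RPKM in OX3 and 27.6 ± 4.28 RPKM in the wild type at low phosphate, against 16.9 ± 2.58 RPKM in OX3 and 15.5 ± 0.372 RPKM in the wild type at normal phosphate (SD, n = 3 each). It rose by 0.69 in OX3 (limma adjusted p = 0.000181) and by 0.78 in the wild type (limma adjusted p = 5.88e-05). PIP2-7 (AT4G35100, chr4:16708361-16710407, plus strand) is a salt-responsive plasma membrane water channel. PIP2-7 had 264, 246 and 272 RPKM in OX3 and 257, 263 and 275 RPKM in the wild type at low phosphate, against 253, 250.02 and 264 RPKM in OX3 and 239, 228 and 208 RPKM in the wild type at normal phosphate. At low phosphate the wild-type libraries were above their normal phosphate counterparts, whereas the OX3 groups overlapped. PIP2-7 rose in the wild type by 0.24 ± 0.062, with a limma adjusted p of 0.00608, and did not pass in OX3 (0.029 ± 0.062, limma adjusted p = 0.73). PIP2-8, its closest relative at 84.6% coding identity, was at 0.13 in OX3 (limma adjusted p = 0.32) and 0.23 in the wild type (limma adjusted p = 0.0925).

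**Figure D3:**
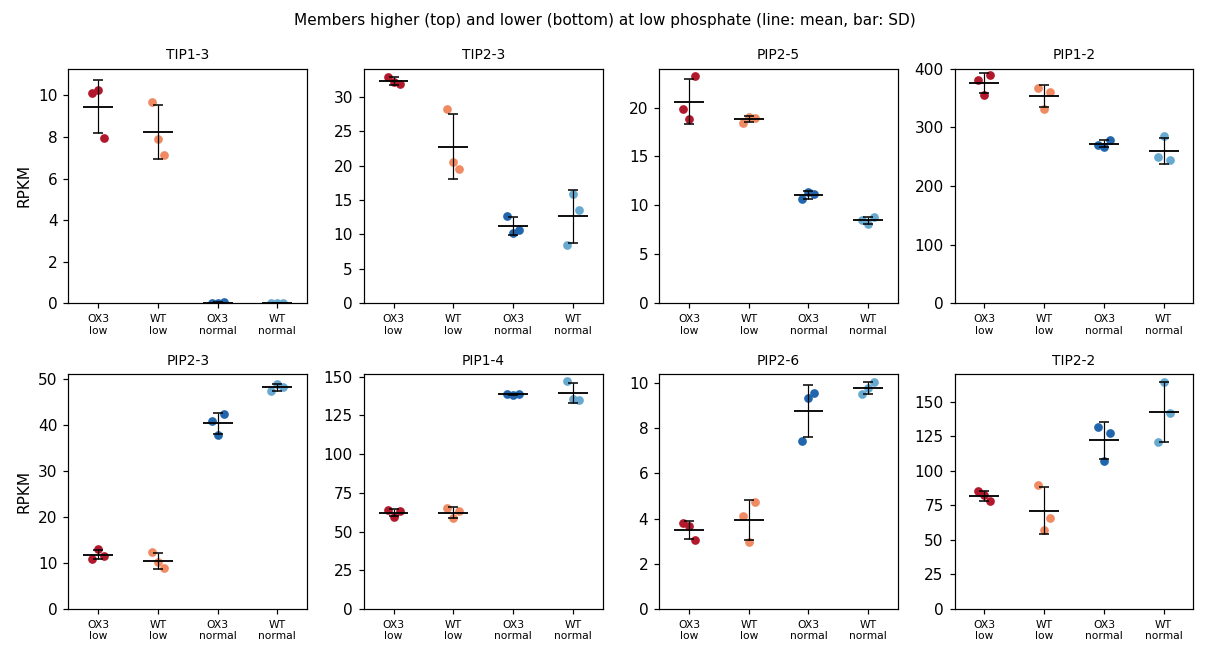
RPKM per library of 4 aquaporins that were higher (top) and 4 that were lower (bottom) at low phosphate, with the mean as a line and the SD as a bar (n = 3 per group, OX3 left of the wild type). PIP1-4 averaged 62.3 RPKM in both low phosphate groups, against 139 RPKM in both normal phosphate groups.

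Among the PIP1 genes 1 rose and 2 fell of 5 in each genotype, and only PIP1-2 and PIP1-4 passed in both. With 5 genes this count is near the share of all tested genes that passed, 47% in OX3 and 46% in the wild type. PIP1-2 (AT2G45960, chr2:18910081-18911982, plus strand) is an abundant contributor to root water conductivity. PIP1-2 had 381, 356 and 389 RPKM in OX3 and 367, 331 and 360.4 RPKM in the wild type at low phosphate, against 269.6, 267 and 279 RPKM in OX3 and 249, 285 and 244 RPKM in the wild type at normal phosphate. The low phosphate libraries were all above the normal phosphate ones. PIP1-2 rose by 0.46 ± 0.067 in OX3 (limma adjusted p = 5.17e-05) and by 0.44 ± 0.067 in the wild type (limma adjusted p = 7.49e-05).

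PIP1-4 (AT4G00430, chr4:185285-187680, minus strand) has been linked to carbon dioxide and hydrogen peroxide transport in leaves. PIP1-4 had 63.8, 59.5 and 63.5 RPKM in OX3 and 65.0, 58.5 and 63.4 RPKM in the wild type at low phosphate, against 139, 138 and 139 RPKM in OX3 and 147, 136 and 135 RPKM in the wild type at normal phosphate. The groups were far apart in both genotypes, and OX3 and wild-type libraries lay together at each phosphate level. PIP1-4 fell by 1.14 ± 0.054 in OX3 (limma adjusted p = 4.91e-10) and by 1.15 ± 0.054 in the wild type (limma adjusted p = 4.8e-10). Its share of the summed PIP1 RPKM was 6.81% ± 0.102 in OX3 and 7.31% ± 0.124 in the wild type at low phosphate, against 14.7% ± 0.512 in OX3 and 15.7% ± 1.02 in the wild type at normal phosphate (SD, n = 3 each). PIP1-2 took the opposite course, with 41.0% ± 0.16 in OX3 and 41.4% ± 0.688 in the wild type at low phosphate, against 28.7% ± 0.846 in OX3 and 29.2% ± 1.58 in the wild type at normal phosphate.

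PIP1-3 (AT1G01620, chr1:225665-227543, minus strand), whose coding sequence is 85.2% identical to that of PIP1-4, passed in OX3 alone at low against normal phosphate. PIP1-3 had 289.7, 274 and 311 RPKM in OX3 and 275, 251 and 289 RPKM in the wild type at low phosphate, against 351, 310.2 and 339 RPKM in OX3 and 287, 268 and 266 RPKM in the wild type at normal phosphate. The low and normal phosphate libraries overlapped in both genotypes, while at normal phosphate the OX3 libraries were all above the wild-type ones. PIP1-3 passed in OX3 (-0.19 ± 0.07, limma adjusted p = 0.0354) and not in the wild type (-0.012 ± 0.07, limma adjusted p = 0.907). The OX3 call ended on leaving out OX3 low phosphate replicate 1 (limma adjusted p = 0.0798) or 2 (0.147), or normal phosphate replicate 2 (0.135) or 4 (0.1003). PIP1-1, a further root PIP1, was at -0.15 in OX3 (limma adjusted p = 0.207) and fell by 0.43 in the wild type (limma adjusted p = 0.00154). PIP1-5 was at -0.11 in OX3 (limma adjusted p = 0.408) and -0.23 in the wild type (limma adjusted p = 0.067).

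The summed PIP2 level at low phosphate was below the normal phosphate range in both genotypes, and the PIP1 sum was not. PIP2 genes summed to 770 ± 10.7 RPKM in OX3 and 725 ± 58.3 RPKM in the wild type at low phosphate, against 931 ± 29.5 RPKM in OX3 and 954 ± 58.7 RPKM in the wild type at normal phosphate (SD, n = 3 each). PIP1 genes summed to 915 ± 39.5 RPKM in OX3 and 853 ± 58.7 RPKM in the wild type at low phosphate, against 948 ± 35.1 RPKM in OX3 and 887 ± 26.3 RPKM in the wild type at normal phosphate. The PIP1 groups overlapped and the PIP2 groups did not. TIP genes summed to 1273 ± 69.5 RPKM in OX3 and 1151 ± 185 RPKM in the wild type at low phosphate, against 1361 ± 48.5 RPKM in OX3 and 1357 ± 90.9 RPKM in the wild type at normal phosphate, with overlap. Over all 33 genes with the MIP domain, the mean sum at low phosphate differed by -9.0% in OX3 and by -14.7% in the wild type from that at normal phosphate, without overlap. The low phosphate sums were 3387, 3190 and 3239 RPKM in OX3 and 3325, 2724 and 3115 RPKM in the wild type. Wild-type replicate 3 was thus the lowest, and the gap between the 2 percentages was not tested. These sums are given without a test.

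**Figure D4:**
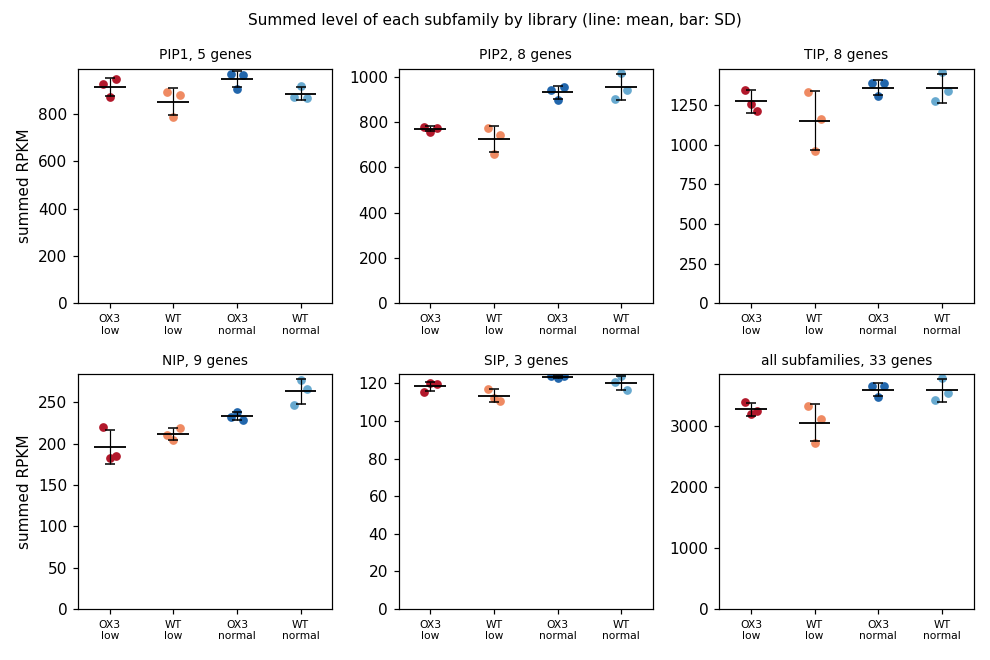
Summed RPKM of each subfamily in each library, with the mean as a line and the SD as a bar (n = 3 per group, OX3 left of the wild type, low left of normal phosphate). The PIP2 and NIP sums of all low phosphate libraries lie below those of the normal phosphate libraries of the same genotype, and the PIP1 and TIP sums overlap.

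Within the NIP group, 2 genes rose and 3 fell of 6 tested in each genotype. The share of all tested genes that passed was 47% in OX3 and 46% in the wild type. NIP5-1 (AT4G10380, chr4:6431161-6435396, minus strand) carries boric acid into root cells when boron is scarce. NIP5-1 had 122, 102 and 101 RPKM in OX3 and 122, 119 and 118 RPKM in the wild type at low phosphate, against 155, 158 and 149 RPKM in OX3 and 167, 193 and 199 RPKM in the wild type at normal phosphate. All low phosphate libraries were below the normal ones, and at normal phosphate the OX3 libraries were all below the wild-type ones. NIP5-1 fell by 0.51 ± 0.076 in OX3 (limma adjusted p = 7.58e-05) and by 0.63 ± 0.076 in the wild type (limma adjusted p = 8.52e-06). NIP6-1, the boric acid channel of shoot nodes, was at a low level in these roots and moved in the opposite direction. It averaged 5.83 ± 0.535 RPKM in OX3 and 5.002 ± 0.789 RPKM in the wild type at low phosphate, against 3.10 ± 0.520 RPKM in OX3 and 2.86 ± 0.533 RPKM in the wild type at normal phosphate (SD, n = 3 each). NIP6-1 rose by 0.74 in OX3 (limma adjusted p = 0.000262) and by 0.64 in the wild type (limma adjusted p = 0.000908). The annotated end of NIP6-1 overlaps AT1G80750 by 26 bases, a gene with a mean of 84.0 RPKM.

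The BOR genes encode boron exporters that work beside these channels. Of 4 tested BOR genes, 1 rose and 3 fell in OX3, and 0 rose and 3 fell in the wild type, where 47% (OX3) and 46% (wild type) of all tested genes passed. BOR2 had 44.1, 38.4 and 39.6 RPKM in OX3 and 50.02, 49.9 and 61.5 RPKM in the wild type at low phosphate, against 112, 106 and 107 RPKM in OX3 and 133, 148 and 149 RPKM in the wild type at normal phosphate. The OX3 libraries were below the wild-type libraries at each phosphate level, and low phosphate libraries below all normal ones. BOR2 fell by 1.39 in OX3 (limma adjusted p = 3.67e-09) and by 1.40 in the wild type (limma adjusted p = 3.24e-09). BOR1, the xylem-loading exporter, averaged 12.8 ± 0.682 RPKM in OX3 and 13.98 ± 1.000 RPKM in the wild type at low phosphate, against 30.8 ± 2.01 RPKM in OX3 and 33.9 ± 1.94 RPKM in the wild type at normal phosphate. BOR1 fell by 1.21 in OX3 (limma adjusted p = 4.42e-09) and by 1.22 in the wild type (limma adjusted p = 3.87e-09). The exporter that rose in OX3, named after its values were seen, was BOR4 (0.33, limma adjusted p = 0.011, against 0.24 and 0.0547 in the wild type). BOR3 fell by 0.27 in OX3 (limma adjusted p = 0.00249) and by 0.16 in the wild type (limma adjusted p = 0.04).

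**Figure D5:**
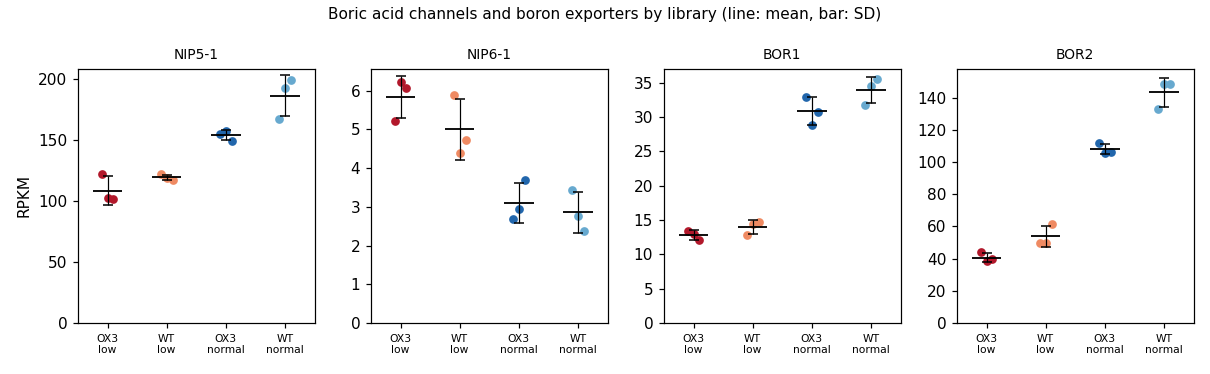
RPKM per library of the boric acid channels NIP5-1 and NIP6-1 and the boron exporters BOR1 and BOR2, with the mean as a line and the SD as a bar (n = 3 per group, OX3 left of the wild type). NIP5-1, BOR1 and BOR2 were lower in all low phosphate libraries than in all normal phosphate ones, and NIP6-1 was higher in them.

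The other NIP genes carry arsenite or other solutes. NIP1-1, an arsenite-permeable channel, averaged 59.1 ± 9.17 RPKM in OX3 and 65.2 ± 10.0 RPKM in the wild type at low phosphate, against 43.4 ± 4.41 RPKM in OX3 and 42.5 ± 7.41 RPKM in the wild type at normal phosphate (SD, n = 3 each). It rose by 0.43 in OX3 (limma adjusted p = 0.0183) and by 0.61 in the wild type (limma adjusted p = 0.00206). The OX3 call of NIP1-1 ended on leaving out OX3 low phosphate replicate 1 (0.31, limma adjusted p = 0.0961) or normal phosphate replicate 2 (0.35, limma adjusted p = 0.0828). NIP1-2, a channel for aluminium malate that lies 53010 bases from NIP1-1 on chromosome 4, fell by 0.44 in OX3 (limma adjusted p = 0.000689) and by 0.40 in the wild type (limma adjusted p = 0.00142).

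NIP3-1, also arsenite-permeable, fell to 3.96 ± 0.375 RPKM in OX3 and 4.28 ± 0.503 RPKM in the wild type at low phosphate, against 8.01 ± 1.25 RPKM in OX3 and 8.40 ± 1.01 RPKM in the wild type at normal phosphate (SD, n = 3 each). Its log2 change was -0.85 in OX3 (limma adjusted p = 2.87e-05) and -0.83 in the wild type (limma adjusted p = 3.57e-05). Of its 50-base stretches, 9.21% occur elsewhere in the genome. NIP4-2, known from pollen, stayed between 0.797 and 1.62 RPKM in all 12 libraries. NIP2-1, a lactic acid channel of oxygen-starved roots (mean 0.256 RPKM), and NIP7-1, an anther boric acid channel (mean 0.208 RPKM), were below the minimum for testing. AT2G29870, a 420-base coding stretch 97.9% identical to NIP2-1, had 1 read in all, in wild-type low phosphate replicate 4. AT4G10370, the row without the MIP domain, rose by 0.64 in OX3 (limma adjusted p = 0.00732) and by 0.60 in the wild type (limma adjusted p = 0.0109). Its wild-type call ended without low phosphate replicate 4 (limma adjusted p = 0.0531) or normal phosphate replicate 4 (0.0517).

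Of the SIP genes 1 passed and 2 did not in each genotype, where 47% (OX3) and 46% (wild type) of all tested genes passed. SIP1-1, a water channel of the endoplasmic reticulum, averaged 86.1 ± 1.74 RPKM in OX3 and 82.9 ± 2.80 RPKM in the wild type at low phosphate, and 89.6 ± 0.637 RPKM in OX3 and 87.4 ± 4.27 RPKM in the wild type at normal phosphate (SD, n = 3 each). SIP2-1 had a log2 change of 0.0055 in OX3 (limma adjusted p = 0.941) and -0.058 in the wild type (limma adjusted p = 0.382). SIP1-2 was the only SIP gene to pass, at -0.40 in OX3 (limma adjusted p = 0.0201) and -0.38 in the wild type (limma adjusted p = 0.0286). Both SIP1-2 calls ended on leaving out any of several libraries. In OX3 these were low phosphate replicate 1 (limma adjusted p = 0.0960) and normal phosphate replicates 2 (0.0757) and 4 (0.0555). In the wild type they were low phosphate replicate 4 (-0.22, limma adjusted p = 0.147) and normal phosphate replicates 3 (0.0691) and 4 (0.0726). SIP1-2 overlaps AT5G18300 (mean 1.66 RPKM) by 444 bases.

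Few aquaporins passed between OX3 and the wild type. At normal phosphate 2 of 30 aquaporin rows passed (6.67%, against 3.1% of all tested genes), both higher in OX3, where 1.37% of all tested genes were higher. The direction was mixed under other fits, with 3 higher and 2 lower on the 2 compared groups alone and 2 higher and 2 lower with limma voom. The share over all tested genes rested on single libraries. It stood for 587 genes, against 8 without OX3 replicate 4, 37 without OX3 replicate 3, 369 without OX3 replicate 2, 39 without wild-type replicate 4, 66 without wild-type replicate 3 and 1059 without wild-type replicate 2. PIP2-5 averaged 11.1 ± 0.371 RPKM in OX3 and 8.49 ± 0.357 RPKM in the wild type, a log2 difference of 0.35 ± 0.073 (limma adjusted p = 0.0284). PIP1-3 averaged 333 ± 20.8 RPKM in OX3 and 274 ± 11.7 RPKM in the wild type, a log2 difference of 0.28 ± 0.07 (limma adjusted p = 0.0465). In each gene the 3 OX3 libraries were above the 3 wild-type libraries. The groups were also apart for TIP2-1, PIP2-7 and PIP2-8 (OX3 higher) and for PIP2-1, PIP2-3 and NIP5-1 (OX3 lower), without passing. The share of all tested genes with groups apart is not given, so the separation is not read as support for the calls. The PIP2-5 call ended without OX3 replicate 3 (limma adjusted p = 0.127) or 4 (0.1105), or wild-type replicate 3 (0.108) or 4 (0.0982), at log2 differences of 0.32 to 0.37. The PIP1-3 call ended without OX3 replicate 2 (0.108), 3 (0.0973) or 4 (0.143), or wild-type replicate 3 (0.130) or 4 (0.1797), limma adjusted p in each case.

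The next lowest p-values at normal phosphate did not pass. NIP5-1 was at -0.27 ± 0.076 (limma adjusted p = 0.0633), TIP2-1 at 0.25 ± 0.077 (limma adjusted p = 0.08), PIP2-7 at 0.18 ± 0.062 (limma adjusted p = 0.0978) and PIP2-3 at -0.25 ± 0.092 (limma adjusted p = 0.118), as OX3 minus wild type. Without wild-type replicate 2, NIP5-1 passed at -0.35 (limma adjusted p = 0.0243). Among the exporters, BOR2 was lower in OX3 at normal phosphate by a log2 difference of -0.40 ± 0.08 (limma adjusted p = 0.024). The BOR2 call was not followed on leaving out a library.

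At low phosphate 0 of 30 aquaporin rows passed between OX3 and the wild type with limma, against 0.0423% of all tested genes. That share was 8 genes, against 196 without wild-type replicate 2, 4 without wild-type replicate 4, 4 without OX3 replicate 1 and 3 without OX3 replicate 4. An unadjusted p below 0.05 was reached by 1 aquaporin row, where 2787 of all tested genes reached it. Limma voom on the recovered reads also called 0 rows. The row was TIP2-3, at 32.3 ± 0.555 RPKM in OX3 and 22.8 ± 4.78 RPKM in the wild type (SD, n = 3 each). Its log2 difference was 0.50 (95% interval 0.13 to 0.88, limma adjusted p = 0.248). The other 29 differences ran from -0.15 to 0.24.

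The low phosphate response was compared between genotypes as the OX3 response minus the wild-type response. With limma 0 of 30 aquaporin rows passed, against 0% of all tested genes, and 6 rows had an unadjusted p below 0.05, where 1351 of all tested genes did. Limma voom also called 0. The 6 rows had differences of 0.63 for TIP2-3 (95% interval 0.10 to 1.16), 0.44 for TIP2-2 (0.02 to 0.87), 0.42 for PIP2-3 (0.14 to 0.70), 0.32 for PIP2-1 (0.043 to 0.60), -0.21 for PIP2-7 (-0.39 to -0.019) and -0.23 for PIP2-5 (-0.45 to -0.0044). The lowest limma adjusted p was 0.623, for PIP2-3. For TIP1-3 the difference was 0.16 (95% interval -0.20 to 0.52) and for PIP1-4 it was 0.0061 (-0.16 to 0.17).

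The P1BS-type sequence GNATATNC was looked for in the 1000 bases before each annotated gene start. It occurred at 15 places in 11 of the 34 rows (32.4%), against 5558 of 27444 protein-coding genes of TAIR10.1 (20.3%). The sites of SIP2-1 and PIP1-5, taken with up to 16 bases on each side, overlap exons of other genes (AT3G56960 and AT4G07115). Such sites were kept in both shares. In the 250 bases before the start it occurred in 2 of 34 rows (5.9%), against 5.5% of protein-coding genes. Of the 11 rows, 3 rose and 4 fell in OX3, where 66.7% of the 30 tested rows passed. In the wild type 4 rose and 5 fell, where 76.7% of the 30 passed. The 8 sites of the 7 genes with a match that passed in both genotypes are shown with 16 bases on each side, from 3 genes that rose (PIP2-4 with its pair of sites, PIP1-2 and NIP6-1) and 4 that fell (TIP2-2, PIP2-3, PIP2-6 and NIP1-2). They are given 5′ to 3′ on the strand of the gene, from RefSeq, with the matching letters in capitals.
PIP2-4, 187 bases before the start (chr5:24377370-24377409, minus strand): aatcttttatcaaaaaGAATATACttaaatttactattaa
PIP2-4, 758 bases before the start (chr5:24377941-24377980, minus strand): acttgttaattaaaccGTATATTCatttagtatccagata
PIP1-2, 586 bases before the start (chr2:18909479-18909518, plus strand): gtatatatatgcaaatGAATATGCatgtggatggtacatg
NIP6-1, 644 bases before the start (chr1:30352829-30352868, minus strand): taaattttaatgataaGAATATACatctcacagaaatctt
TIP2-2, 157 bases before the start (chr4:9698767-9698806, plus strand): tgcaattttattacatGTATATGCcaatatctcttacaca
PIP2-3, 503 bases before the start (chr2:15617116-15617155, plus strand): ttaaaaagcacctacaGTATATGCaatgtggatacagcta
PIP2-6, 651 bases before the start (chr2:16290613-16290652, plus strand): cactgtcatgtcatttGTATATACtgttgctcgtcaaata
NIP1-2, 851 bases before the start (chr4:10365177-10365216, plus strand): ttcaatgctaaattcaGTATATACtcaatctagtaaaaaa
Genes with the sequence thus rose and fell. Among aquaporins called at a log2 change of at least 1 in a genotype, PIP2-3, PIP2-6 and TIP2-2 had it. TIP1-3, TIP2-3, PIP2-5 and PIP1-4 had none in the 1000-base window. For TIP1-3 the window beyond the nearest 183 bases lies past the annotated start of PPa5, so absence there says little. A match is a description of the letters and not evidence of binding.

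Proteins that act on aquaporins were also read out, as a list of 14 with 13 tested. In OX3 4 rose and 2 fell, where 47% of all tested genes passed. In the wild type 3 rose and 2 fell, where 46% of all tested genes passed, so neither count was above the share over all genes. XND1, a transcription factor that lowers root water conductivity, averaged 5.34 ± 1.01 RPKM in OX3 and 5.10 ± 0.755 RPKM in the wild type at low phosphate, against 1.73 ± 0.397 RPKM in OX3 and 1.72 ± 0.203 RPKM in the wild type at normal phosphate (SD, n = 3 each). It rose by 1.21 in OX3 (limma adjusted p = 5.96e-06) and by 1.16 in the wild type (limma adjusted p = 9.33e-06). SYP121, a syntaxin that brings PIP2 proteins to the plasma membrane, rose by 0.48 in OX3 (limma adjusted p = 2.18e-06) and by 0.37 in the wild type (limma adjusted p = 2.7e-05). Its relative SYP122 fell by 0.21 in OX3 (limma adjusted p = 0.0223) and by 0.44 in the wild type (limma adjusted p = 0.0001). QSK1, a receptor kinase that modifies aquaporins, fell by 0.21 in OX3 (limma adjusted p = 0.00324) and by 0.17 in the wild type (limma adjusted p = 0.00982).

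Genes of the water deficit response were read beside the channels. Of 9 tested in a list of 12, 6 rose and 1 fell in OX3, and 6 rose and 0 fell in the wild type. Over all tested genes 23.3% were higher and 23.8% lower in OX3, and 24.3% were higher and 21.6% lower in the wild type. P5CS1, which makes proline, rose by 1.16 in OX3 (limma adjusted p = 2.66e-09) and by 1.31 in the wild type (limma adjusted p = 7.32e-10). HAI1, a phosphatase of abscisic acid signalling, rose by 1.18 in OX3 (limma adjusted p = 9.35e-07) and by 1.34 in the wild type (limma adjusted p = 2.45e-07). ABI1, also such a phosphatase, rose by 0.81 in OX3 (limma adjusted p = 9.45e-08) and by 0.78 in the wild type (limma adjusted p = 1.51e-07). The gene that fell, named after its values were seen, was the dehydrin gene RAB18, which fell in OX3 (-1.39, limma adjusted p = 0.015) and was at -0.98 in the wild type (limma adjusted p = 0.0758).

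Markers of root layers moved with phosphate too. The counts stand beside 23.3% of all tested genes higher and 23.8% lower at low phosphate in OX3, and 24.3% higher and 21.6% lower in the wild type. Of 8 epidermis and root hair markers, 7 rose in each genotype, and their summed level ran from 109 to 135 RPKM in OX3 and from 99.9 to 173 RPKM in the wild type at low phosphate, against 49.3 to 58.5 RPKM in OX3 and 45.4 to 58.9 RPKM in the wild type at normal phosphate. Of 7 tested endodermis markers, 7 rose in OX3 and 6 in the wild type. Of 7 tested stele markers, 4 rose and 2 fell in OX3, and 3 rose and 2 fell in the wild type. Of 8 root cap and meristem markers, 3 rose in OX3 and 7 in the wild type, and 0 of the 8 passed in limma's test of the difference of responses. Of 8 photosynthesis genes, 6 fell and 0 rose in OX3, and 6 fell and 1 rose in the wild type. Their sum ran from 218 to 250 RPKM in OX3 and from 191 to 220 RPKM in the wild type at low phosphate, against 692 to 734 RPKM in OX3 and 458 to 527 RPKM in the wild type at normal phosphate, where 5 of the 8 were called higher in OX3 (1.37% of all tested genes were). Calls between genotypes at normal phosphate ran from 8 to 1059 genes when 1 library was left out, against 587. These 5 calls were not followed on leaving out a library. Of the 8 shoot markers outside photosynthesis, FIL had no row in the RPKM table and 0 of the other 7 reached the minimum for testing. These 7 summed to at most 0.862 RPKM in any library. The part of these shifts in the aquaporin changes was not tested.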

How the data were processed

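Root RNA of 12 Arabidopsis libraries was measured by RNA sequencing. The authors deposited 1 table of RPKM values (reads per gene length and library total) for 25941 genes with annotation columns, and HTSeq 0.6.0 and TAIR10 are named in the submitters' processing notes. The strand and the counting mode are not stated there.

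Whole reads were recovered from the deposited RPKM values. Library totals were fitted from these same values. With the exon-union length of TAIR10.1, 25547 genes (98.48%) were whole within 0.01 read in every library, 394 were whole with another length and 0 with none. The other length was the smallest that fitted in a search over many lengths. A fit is easily found for genes with few reads, and the reads of these 394 genes may be understated. All 34 aquaporin rows were whole and matched TAIR10.1 in position. For a gene of 1 kb, 3 reads were worth 0.147 to 0.170 RPKM, and intervals on reads cover counting error only.

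Tests used limma 3.58.1 in R 4.3.3 with a trend, on log2(RPKM + 1), for the 18910 genes that averaged 1 RPKM or more over all libraries. All 4 groups entered 1 fit with 5 contrasts (low against normal phosphate in each genotype, OX3 against wild type at each phosphate level, and the difference of responses). P-values were adjusted by the Benjamini-Hochberg method over all tested genes, called below 0.05, two-sided. SE is from limma, and SD is between libraries. Where libraries of compared groups are said not to overlap, this describes that gene, and the share of all tested genes without overlap is not given. The count test planned for a table of counts was not used, because the table holds RPKM. The code was checked on simulated data. Alternatives were median-ratio scaling, no filter, a pseudocount of 0.1, a replicate block, the 2 compared groups alone, limma voom on the recovered reads, and leaving out each library.

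Every aquaporin row is accounted for. Values per library are given for the 8 highest means, for genes called between genotypes and for genes called with a log2 change of at least 1 at low phosphate. From the other gene lists up to 3 called genes with the smallest adjusted p per comparison were named. The family and the lists were chosen with earlier results of these data known. Same-numbered replicates were checked for shared deviations, and they were no more alike than differently numbered ones. With 3 libraries a group this cannot exclude a pairing.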

Additional observations from a re-analysis of the deposited data

How the results depend on the processing

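The number of aquaporins called at low phosphate stayed within 1.5 times of the values reported in every alternative run. It was 17 to 22 in OX3 and 20 to 24 in the wild type, and 17 to 20 and 19 to 25 when 1 library was left out. OX3 against wild type at low phosphate and the difference of responses gave 0 calls in every alternative. At normal phosphate the 2 calls between genotypes were 1 with median-ratio scaling, 0 with no filter, 5 with the 2 compared groups alone and 4 with limma voom, and 0 to 3 when 1 library was left out. Over all tested genes that comparison called 587, against 606 with median-ratio scaling, 152 with no filter, 1087 with the 2 groups alone and 1151 with voom, and 8 to 1059 when 1 library was left out. At low phosphate the 8 genes called between genotypes were 3 to 196 when 1 library was left out, and the difference of responses gave 0 to 1. The cause was not tested.

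With replicate number as a block the calls were 17 in OX3 and 24 in the wild type at low phosphate, 1 between genotypes at normal phosphate, where PIP1-3 no longer passed (limma adjusted p = 0.0642) and 225 of all tested genes did, 0 at low phosphate and 0 for the difference of responses. In OX3 the block ended the calls of NIP1-1 (limma adjusted p = 0.114), SIP1-2 (0.163) and AT4G10370 (0.0703), and in the wild type PIP1-5 was gained (0.0397). Deviations from the group means correlated at -0.143 to 0.076 between same-numbered libraries, and at -0.186 to 0.233 between differently numbered ones. With 3 libraries a group this check cannot exclude a shared batch, and what the numbers stand for is not stated.

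On leaving out each library, PIP1-3 in the wild type ran from -0.057 to 0.043 and PIP2-7 in OX3 ran from -0.0025 to 0.070, both without passing. At low against normal phosphate, with no filter PIP1-3 in OX3 (limma adjusted p = 0.0535) and TIP1-1 (0.0561), TIP1-2 (0.0795) and SIP1-2 (0.0536) in the wild type no longer passed, and with the 2 compared groups alone TIP1-1 (0.0806), TIP1-2 (0.102) and SIP1-2 (0.0536) did not. With median-ratio scaling PIP1-3 did not pass in OX3 (0.0555). Calls were gained for PIP1-1 (0.0462) and TIP1-2 (0.0464) in OX3 with the 2 compared groups alone, and for PIP1-5 in the wild type with limma voom (0.0476). At normal phosphate PIP2-3, lower in OX3, was gained with the 2 groups alone (0.0355) and with voom (0.0407), as was NIP5-1, also lower (0.0494 and 0.0393), and TIP2-1, higher, with the 2 groups alone (0.0401). The size of the TIP1-3 change depends on the pseudocount: with 0.1 it was 6.39 in OX3 and 6.37 in the wild type. A fit of the 2 compared groups alone does not exist for the difference of responses. With 3 libraries a group, differences smaller than the intervals given could not be detected.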
